A study of Mus musculus with 222 samples.

Results

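Normal XY germ cells of the mouse were followed from E11.5 to E13.5, where E stands for the day of embryonic development. The 8 libraries used were all bulk RNA-seq libraries of the Control XY groups, 4 at E11.5 and 4 at E13.5, out of 22 bulk libraries in the series. The study asks what EED, a core subunit of Polycomb repressive complex 2, does in primordial germ cells (PGCs), and its Controls are the normal cells described here. PGCs were sorted from trypsin-digested gonads as GFP-positive cells, and their RNA was turned into cDNA and amplified with a kit for small inputs (Ovation RNA-seq System V2). The labels give the strain as C57BL/6;129S1/SvlmJ and the genotype of Controls at both stages as wild type. The dams of all embryos were homozygous for a floxed Eed allele (Eed fl/fl) and carried OG, the Oct4-GFP reporter. The sires carried BC, the Blimp1-Cre transgene that is active in PGC precursors, and were heterozygous (Eed fl/+), so each Control embryo inherited a floxed Eed allele from its dam. Whether a Control embryo also carried the Cre, and how many embryos entered a library, is not given in the sources used here. Because the GFP gate reads the Pou5f1 promoter, the level of Pou5f1 is not independent of the sort.

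PGCs reach the genital ridge as dividing, pluripotency-gene-positive cells with little DNA methylation. In the embryonic testis they then stop responding to the signals that start meiosis in the ovary, switch on genes of the later germline, pass through a period of Nodal and activin signalling, and stop dividing as prospermatogonia (the non-dividing precursors of spermatogonia). Germline genes include Dazl and Ddx4, which encode RNA-binding proteins, and the machinery of Piwi-interacting RNAs (piRNAs), small RNAs that silence transposons.

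Depth per library ranged from 9112396 to 14974853 counts at E11.5 and from 4903492 to 12425911 at E13.5. The germ cell identity of the sort was checked on 10 markers, whose summed level lay between 2450 and 3010 CPM (read counts scaled to a fixed library total) at E11.5 and between 3480 and 4100 CPM at E13.5, with none at 0 in a whole stage. Most of the sum was Dppa3, Sall4 and Kit. The markers did not move together: Dazl, Ddx4, Dppa3 and Mael were higher in every E13.5 library than in any E11.5 library. Dnd1, Nanos3 and Tfap2c were lower in every one. Nanos3 measured 19.7, 17.2, 28.1 and 34 CPM by total counts at E11.5 and 1.11, 0.241, 0 and 2.24 CPM at E13.5. Eed itself was measured at 73.8, 102, 129.7 and 83.8 CPM at E11.5 and 80.9, 94.4, 57.4 and 122 CPM at E13.5, and the stages overlapped. E13.5 Control 3 stood apart: it had counts for 11716 genes, against 13900 to 15154 in the other E13.5 libraries, and its correlation with them across genes was 0.872 to 0.883, against 0.936 to 0.965 among those 3. Each stage comes from its own table, so stage and table cannot be told apart, and the text stresses large changes without overlap between the groups. The labels do not say whether replicates are separate embryos or pools, so the p-values measure the spread between these libraries. In bulk RNA, fewer cells of a type and less RNA per cell cannot be told apart.

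Of 11918 genes tested with edgeR's quasi-likelihood test, 2358 were higher (19.8%) and 2223 lower (18.7%) at E13.5, at an adjusted p under 0.05. A large change is used here for a called gene with a log2 fold change of at least 2 in size and no overlap of CPM between the stages. By that rule 537 genes were higher (4.51%) and 1174 lower (9.85%). The groups did not overlap at 4980 genes (41.8%).

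**Figure D1:**
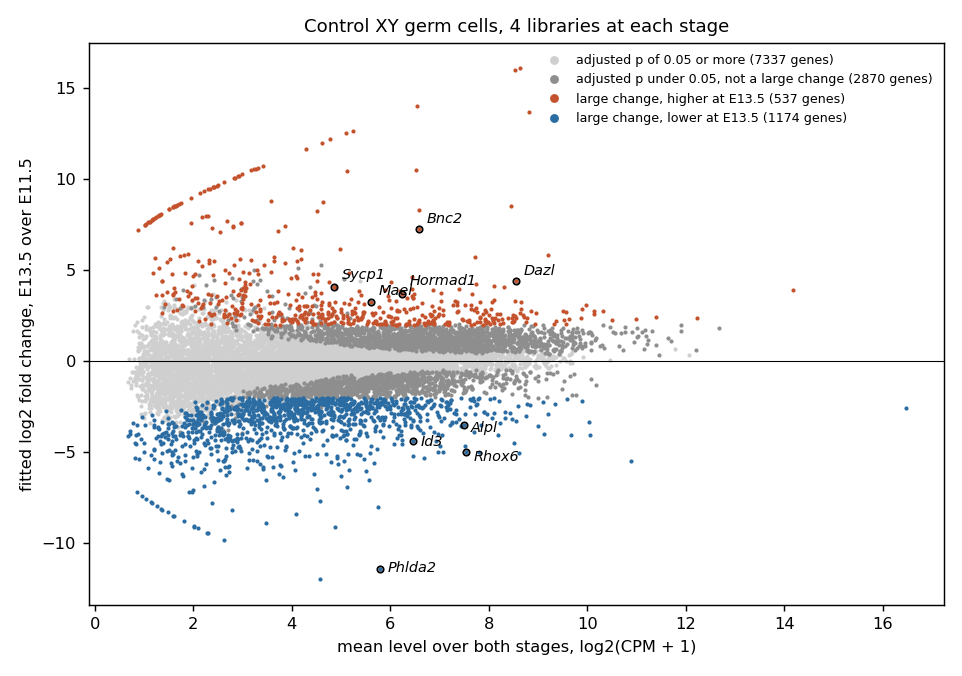
Each point is 1 of the 11918 genes tested; the x axis is the mean level over both stages as log2(CPM + 1) and the y axis the fitted log2 fold change, E13.5 over E11.5. The 537 genes with a large change upwards are red and the 1174 with one downwards blue; the straight rows of points at the top and bottom are genes without counts at 1 stage, whose fitted fold change is not a measured bound.

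Fold changes moved with the genomic span of the gene, its distance from first to last base including introns. Of 10 equal bins of genes by span, the bin with the shortest span, 0.048 to 4.25 kb, had a median log2 fold change of -1.43 and the bin with the longest, 121 to 2390 kb, one of 0.591. The shortest bin held 371 genes with a large change downwards and 34 upwards, and the longest 32 and 72. In every E11.5 library short genes sat above their mean level over the 8 libraries, with median deviations of 0.45 to 0.768 on the log2 scale. In every E13.5 library they sat below it, at -1.01 in Control 3 and -0.469 to -0.576 in the others. Removing a smooth curve on span from each library, an alternative chosen after seeing the data, left 2307 genes higher (19.4% of 11893) and 1427 lower, with 721 large changes upwards (6.06%) and 688 downwards (5.78%). The share of calls that were higher thus moved from 51.5% to 61.8%. Counts with this span offset are given beside those without it, and the part of gene span in any single change was not tested.

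**Figure D2:**
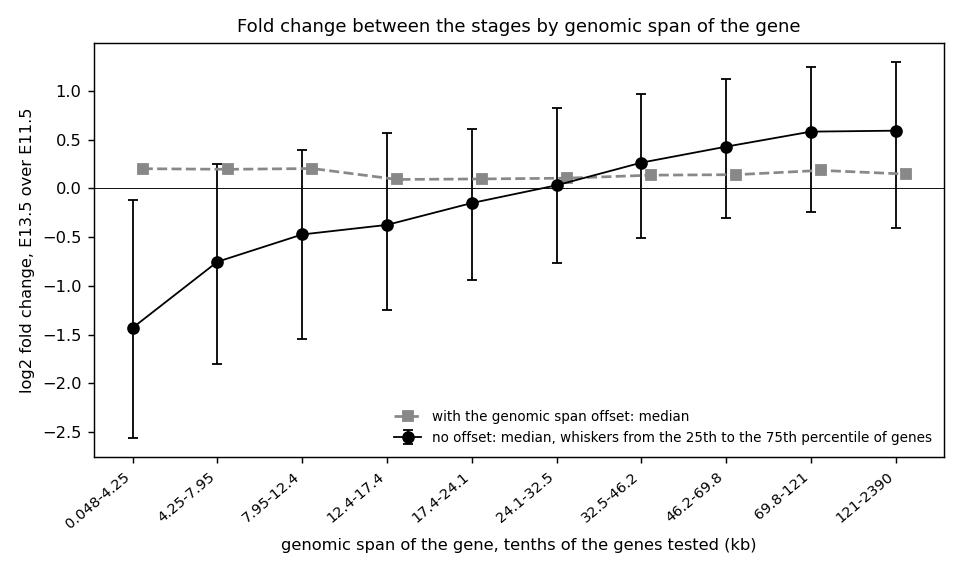
Genes are divided into 10 equal bins by genomic span in kb (x axis), and the y axis gives the log2 fold change, E13.5 over E11.5; black points are medians with whiskers from the 25th to the 75th percentile of genes, and grey squares are medians with the span offset. The black medians rise from -1.43 to 0.591 with span, and the grey ones stay between 0.0909 and 0.203.

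Genes of the later germline rose far more often than they fell. Of 28 late germ cell genes listed, 21 were tested, and 13 of these rose and 1 fell, against 19.8% and 18.7% of all genes tested, with a median log2 fold change of 1.93 against -0.054 over all genes tested. Of the 13, 8 had a large change. With the span offset 14 rose and none fell, and without E13.5 Control 3 the counts were 14 and 1 of 22 tested. Their summed level in the tables was 411 to 441 CPM at E11.5 and 1860 to 2550 CPM at E13.5.

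Dazl, which encodes an RNA-binding protein needed for germ cells to respond to sex-specific signals, measured 22.2, 17.9, 43.9 and 49.9 CPM at E11.5 and 638, 579.6, 1089 and 566 CPM at E13.5. The lowest E13.5 library was above the highest E11.5 library by more than 10-fold (log2 fold change 4.42 ± 0.37 (SE), adjusted p = 2.21e-06), with Control 3 the highest. Ddx4, the germ cell RNA helicase also called Vasa, measured 101, 108, 108 and 71.8 CPM at E11.5 and 285, 318, 414 and 279.2 CPM at E13.5 (log2 fold change 1.74 ± 0.21 (SE), adjusted p = 3.84e-05). It was thus already well expressed at E11.5, and the stages did not overlap. Mael, which encodes a piRNA factor, measured 9.97, 7.93, 7.83 and 10.1 CPM at E11.5 and 59.5, 134, 82.8 and 68.6 CPM at E13.5 (log2 fold change 3.27 ± 0.33 (SE), adjusted p = 1.25e-05). Tex14, needed for the bridges between dividing germ cells, went from 115, 94.6, 102 and 113 CPM to 464, 548, 929 and 499 CPM (log2 fold change 2.52 ± 0.23 (SE), adjusted p = 5.13e-06). Usp26, an X-linked ubiquitin protease gene of the testis, measured 10.8, 5.08, 9.86 and 9.63 CPM at E11.5 and 79.9, 72, 79.1 and 78 CPM at E13.5 (log2 fold change 3.12 ± 0.32 (SE), adjusted p = 1.19e-05). None of these genes overlapped between the stages, and all 5 stayed called with the span offset, at log2 fold changes of 4.99 for Dazl, 1.49 for Ddx4, 3.16 for Mael, 2.15 for Tex14 and 2.90 for Usp26.

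Ctcfl, which encodes the germline paralogue of the insulator protein CTCF, had no count in any E11.5 library and 11.495, 13.46, 14.9 and 31.1 CPM at E13.5. Against the floor of 3 counts over the group, this is at least 282-fold higher (adjusted p = 5.26e-05). Ctcfl was 1 of 17 genes with no count at E11.5 and at least 5 CPM in each E13.5 library, described under other observations.

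At E12.5 the series holds single XY Control cells, sequenced with Smart-seq2 and summed here over 13 and 22 kept cells of 2 embryos. Being another method, they are set beside the bulk values without a test. Dazl stood at 185 and 133 CPM in the 2 embryos, between the bulk stages, and reached 10 CPM in 13 of 13 and 20 of 22 cells. Mael stood at 30.8 and 22.6 CPM, also between them, and Ddx4 at 89.7 and 19.5 CPM. Ctcfl had no count in these cells, and counting error alone allows shares of cells with a count of up to 23.1% of 13 and 13.6% of 22 cells. This limits detection in these cells and not expression.

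Genes of meiosis also rose more often than they fell. Of 25 meiosis genes tested, 11 rose and 2 fell, with 7 large changes, all upwards, and a median of 0.934. Over all genes tested 19.8% rose, 18.7% fell and 4.51% had a large change upwards. With the span offset 11 rose and none fell. Hormad1, a HORMA-domain protein of the chromosome axis, measured 10.2, 13, 3.07 and 16.4 CPM at E11.5 and 101, 109, 220.4 and 126 CPM at E13.5 (log2 fold change 3.70 ± 0.46 (SE), adjusted p = 5.87e-05). Smc1b, the meiotic cohesin subunit, measured 89.2, 57.6, 69.8 and 86.8 CPM at E11.5 and 522, 556, 1237 and 576 CPM at E13.5 (log2 fold change 3.25 ± 0.30 (SE), adjusted p = 4.93e-06). Both were clear of overlap, with Control 3 again the highest library for each. Sycp1, of the transverse filaments of the synaptonemal complex, measured 2.94, 2.75, 1.8 and 4.84 CPM at E11.5 and 29.4, 42.8, 75.6 and 64.5 CPM at E13.5 (log2 fold change 4.10 ± 0.47 (SE), adjusted p = 2.78e-05). Sycp3, of its lateral element, measured 14.4, 11.1, 2.73 and 9.06 CPM at E11.5 and 20.6, 19.3, 134 and 43.9 CPM at E13.5 (log2 fold change 2.55 ± 0.66 (SE), adjusted p = 0.00855). Sycp3 was the least even of these, with the 4 E13.5 libraries spread over more than 6-fold, all above E11.5. Hfm1, a meiotic DNA helicase gene, rose from 8.02, 13.9, 9.74 and 13.9 CPM to 35.1, 50.5, 112 and 102 CPM (log2 fold change 2.71 ± 0.41 (SE), adjusted p = 0.000239). Psmc3ip, a recombination cofactor, fell to 24 ± 6.31 CPM (SD, n = 4) from 76.2 ± 7.56 (log2 fold change -1.67), but not with the span offset (-0.23, adjusted p = 0.651).

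Stra8, the gene that marks meiotic entry, did not pass the filter on low counts, with 17 counts over the E11.5 libraries and 5 over the E13.5 libraries. Stra8 was thus near the detection limit at both stages. In the E12.5 cells, Hormad1 stood at 1.69 and 1.57 CPM, Sycp1 at 1.48 and 2.83 CPM and Sycp3 at 1.62 and 2.38 CPM.

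**Figure D3:**
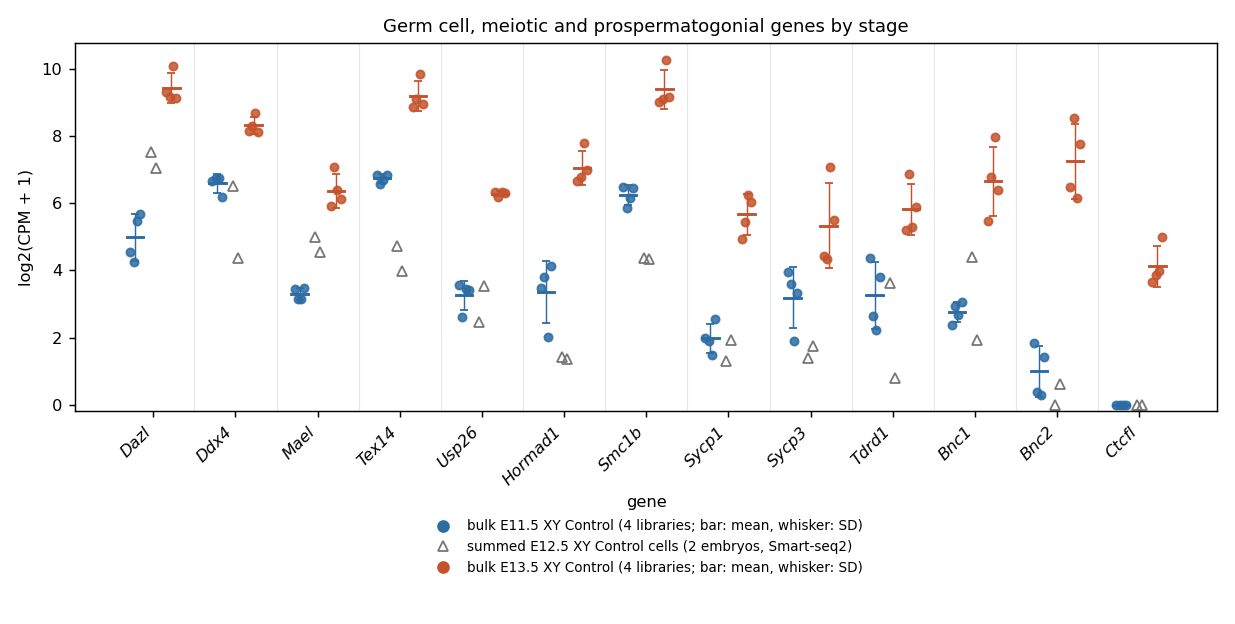
For 13 genes of the later germline (x axis), the level is given as log2(CPM + 1) on the y axis; blue and red points are the 4 E11.5 and 4 E13.5 bulk libraries with mean and SD, and grey triangles are the sums of E12.5 cells of 2 embryos. At each gene the red points lie above all blue ones, and Ctcfl is at 0 in every library and embryo before E13.5.

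Promoters of many germline genes are rich in CpG and carry E-boxes or E2F-type sites. Windows are shown for 5 genes above that hold such letters and for Dazl, which rose by a larger fold than these 5 and holds neither motif. The sequences are the 250 bases before the annotated start, read 5′ to 3′ along the gene, from RefSeq promoter windows of GRCm38.p6, a later build than the mm9 of the submitters' notes. Capitals mark CACGTG, the E-box that reads the same on both strands, and GCGGGA on either strand (TCCCGC on the other), a motif of the E2F type; the motifs share no bases in these windows.
Mael (chr1:166238745-166238994, minus strand): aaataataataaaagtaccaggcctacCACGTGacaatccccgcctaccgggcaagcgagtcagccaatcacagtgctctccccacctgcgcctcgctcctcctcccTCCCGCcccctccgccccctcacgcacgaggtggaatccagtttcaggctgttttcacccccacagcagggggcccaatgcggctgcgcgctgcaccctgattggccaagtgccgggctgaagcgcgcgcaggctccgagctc
Hormad1 (chr3:95559427-95559676, plus strand): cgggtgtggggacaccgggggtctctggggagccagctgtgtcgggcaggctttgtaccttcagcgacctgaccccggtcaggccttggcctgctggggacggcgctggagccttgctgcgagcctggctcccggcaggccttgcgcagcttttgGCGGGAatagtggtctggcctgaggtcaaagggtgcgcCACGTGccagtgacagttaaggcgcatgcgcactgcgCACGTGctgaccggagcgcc
Sycp1 (chr3:102936101-102936350, minus strand): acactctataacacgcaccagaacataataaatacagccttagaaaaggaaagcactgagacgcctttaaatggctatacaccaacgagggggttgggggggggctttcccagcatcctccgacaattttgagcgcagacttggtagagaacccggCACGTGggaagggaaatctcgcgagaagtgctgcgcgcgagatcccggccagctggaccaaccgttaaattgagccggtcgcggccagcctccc
Sycp3 (chr10:88459337-88459586, plus strand): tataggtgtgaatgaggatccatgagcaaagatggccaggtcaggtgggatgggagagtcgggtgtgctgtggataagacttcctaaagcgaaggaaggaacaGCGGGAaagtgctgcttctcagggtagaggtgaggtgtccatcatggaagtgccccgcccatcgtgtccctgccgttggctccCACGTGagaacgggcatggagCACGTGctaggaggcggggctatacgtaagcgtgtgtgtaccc
Ddx4 (chr13:112652311-112652560, minus strand): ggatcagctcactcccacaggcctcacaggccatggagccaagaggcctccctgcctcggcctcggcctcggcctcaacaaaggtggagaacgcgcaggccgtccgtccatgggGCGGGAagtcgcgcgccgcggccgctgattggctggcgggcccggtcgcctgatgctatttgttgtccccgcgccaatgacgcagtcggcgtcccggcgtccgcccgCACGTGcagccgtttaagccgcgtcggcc
Dazl (chr17:50293621-50293870, minus strand): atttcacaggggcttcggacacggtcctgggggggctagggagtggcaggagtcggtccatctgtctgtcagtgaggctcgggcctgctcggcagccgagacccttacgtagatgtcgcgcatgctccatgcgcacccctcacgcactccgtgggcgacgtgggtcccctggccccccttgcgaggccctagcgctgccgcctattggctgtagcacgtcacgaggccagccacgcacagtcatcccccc

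Each window above with a motif held CACGTG, and the windows of Hormad1 and Sycp3 held it 2 times. Over the full 300-base windows, which run 50 bases past the start, CACGTG stood in 11 of 23 late germ cell genes with a window (47.8%), 7 of 19 piRNA genes (36.8%) and 7 of 31 meiosis genes (22.6%), against 7.24% of all 27025 windows and 10.7% of those of genes tested. GCGGGA stood in 39.1%, 26.3% and 61.3% of the windows of these lists, against 5410 of the 27025 windows of all genes and 37.1% of those of genes tested. Over all genes with a large change, CACGTG stood in 11.9% of 411 windows of genes that rose and in 12.8% of 872 of genes that fell. GCGGGA stood in 32.6% and 34.5% of them. The median number of CpGs in a window was 20 for genes that rose, 19 for genes that fell, 21 for genes tested and 7 for all windows. A match describes the letters of the window and not a bound site.

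Male germ cell genes moved in both directions. Of 14 tested, 7 rose and 3 fell, against 19.8% and 18.7% of all genes tested. Their median was 1.06, and the counts were the same with the span offset. The gene lists share members. Dazl and Ddx4, which rose, are in both this list and the late germ cell list. Ddx4 and Mael are in both the late germ cell and piRNA lists, so the counts of these lists are not independent. Bnc2, which encodes a zinc finger protein of prospermatogonia, measured 2.58, 0.305, 0.232 and 1.7 CPM at E11.5 and 88.9, 375, 70.8 and 218 CPM at E13.5 (log2 fold change 7.29 ± 0.78 (SE), adjusted p = 1.82e-05). Its paralogue Bnc1 measured 4.19, 6.71, 5.39 and 7.3 CPM at E11.5 and 43.8, 109, 249.9 and 82.7 CPM at E13.5 (log2 fold change 4.36 ± 0.50 (SE), adjusted p = 2.79e-05). For both the lowest E13.5 library exceeded every E11.5 library, and the E13.5 libraries themselves spread over more than 5-fold. Foxo1, which encodes a transcription factor of prospermatogonia and spermatogonia, rose from 119 ± 27.2 CPM (SD, n = 4) to 357 ± 63.1 (log2 fold change 1.58, adjusted p = 9.49e-05). Dnd1, a germ cell RNA-binding protein gene, fell and is described with the early germ cell genes.

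The genes that mark committed male germ cells were barely detected. Nanos2, the RNA-binding protein of male germ cell commitment, had no count at E11.5 and 0.203, 2.5, 0.122 and 0.643 CPM at E13.5, 37 counts in all, which is at least 19-fold higher over the groups. This bound rests on E13.5 Control 2, which held 31 counts; the 6 counts of the other libraries give at least 4.78-fold. Dnmt3l, a cofactor of de novo DNA methylation, had no count at E11.5 and 8 at E13.5, from 2 libraries. Neither passed the filter on low counts, so neither was tested.

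Of 19 piRNA pathway genes tested, 7 rose and 2 fell, against 19.8% and 18.7% of all genes tested. The list had 2 large changes, Mael and Tdrd1. The median was 0.942, and with the span offset 6 rose and 1 fell. Without E13.5 Control 3, 7 rose and 4 fell of 20 tested, and 4 had a large change. Tdrd1, a Tudor-domain scaffold of piRNA granules, measured 19.8, 5.19, 3.65 and 12.8 CPM at E11.5 and 36.1, 116, 38.5 and 57.9 CPM at E13.5 (log2 fold change 2.59 ± 0.56 (SE), adjusted p = 0.00283). Tdrd5, of the same family, measured 19.9, 16.1, 12.1 and 28.5 CPM at E11.5 and 72, 90.1, 42.9 and 73.7 CPM at E13.5 (log2 fold change 1.86 ± 0.35 (SE), adjusted p = 0.00103). Piwil4, the nuclear Piwi protein of prospermatogonia, was low, at 0.98, 0.508, 0.348 and 0.881 CPM at E11.5 and 0.509, 2.02, 0.366 and 1.07 CPM at E13.5, with overlap (log2 fold change 0.55 ± 0.97 (SE), adjusted p = 0.687). Tex19.1, a germ cell gene that restrains transposons, fell from 220.3 to 137 CPM (log2 fold change -0.69, adjusted p = 0.0101) and turned upwards with the span offset (0.99, adjusted p = 0.00806).

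Nodal signalling begins with the ligand Nodal, its co-receptor Tdgf1 and activin receptors, acts through SMAD2, and induces its own inhibitors Lefty1 and Lefty2. Of 14 Nodal and activin genes tested, 6 rose and 3 fell, with a median of 0.534, and 3 rose and 1 fell with the span offset. For comparison, 19.8% of all genes tested rose and 18.7% fell, and with the offset 19.4% rose and 1427 of 11893 fell. The 3 that fell, and the 3 that rose with the offset, were near these shares. The count of 6 was also 3 without E11.5 Control 1, without E11.5 Control 2 or when libraries were scaled by total counts only. Nodal measured 27.5, 24, 10.03 and 31.9 CPM at E11.5 and 26.9, 32, 19.4 and 7.71 CPM at E13.5, and the stages overlapped (log2 fold change -0.11 ± 0.49, adjusted p = 0.877). Tdgf1 measured 19.06, 20.5, 19.13 and 34.7 CPM at E11.5 and 69.1, 40.6, 45.5 and 46.1 CPM at E13.5 (log2 fold change 1.11 ± 0.33 (SE), adjusted p = 0.0171), and its call was lost without E11.5 Control 1 (0.0549), E11.5 Control 2 (0.0534) or E13.5 Control 1 (0.0619, all adjusted p), with all 22 bulk libraries in the fit (0.156) and with scaling by total counts only (0.055). Acvr2a, a receptor gene, measured 11.8, 24.5, 13 and 12.7 CPM at E11.5 and 24.6, 44.6, 116 and 29.4 CPM at E13.5 (log2 fold change 1.80 ± 0.49 (SE), adjusted p = 0.0118) and did not pass with the span offset (adjusted p = 0.0596). Lefty2 rose from 131, 72.7, 81.6 and 136 CPM to 224, 175, 246 and 145 CPM (log2 fold change 0.91 ± 0.25 (SE), adjusted p = 0.0132), while Lefty1 measured 10.51, 8.64, 9.28 and 15.3 CPM at E11.5 and 18.1, 28.8, 1.34 and 12 CPM at E13.5 with overlap (log2 fold change 0.46 ± 0.68 (SE), adjusted p = 0.627). Smad7, an inhibitory SMAD, fell from 85.8, 80.8, 76.5 and 89 CPM to 23.3, 27.1, 41.5 and 17.8 CPM (log2 fold change -1.59 ± 0.29 (SE), adjusted p = 0.000933).

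The E12.5 cells gave higher values for the ligand and its inhibitors than the mean of either bulk stage. Nodal stood at 110.3 and 134 CPM in the 2 embryos, Lefty1 at 538 and 291 CPM and Lefty2 at 1112 and 367 CPM. Lefty2 reached 10 CPM in 13 of 13 and 22 of 22 cells, and Lefty1 in 12 of 13 and 21 of 22 cells. Tdgf1, in contrast, stood at 5.37 and 17.6 CPM. The library method differs between these cells and the bulk libraries, so the order of stages is a description.

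The FGF response list was small: 2 of 13 genes tested rose and 5 fell, and with the span offset 1 rose and 2 fell. For comparison, 19.8% of all genes tested rose and 18.7% fell, and with the offset 19.4% rose and 1427 of 11893 fell. The 2 that rose, and the 2 that fell with the offset, were near these shares. Etv1, an ETS factor gene, had the largest rise, with 4.9, 6.71, 6.96 and 8.49 CPM at E11.5 and 135, 129, 242 and 157 CPM at E13.5 (log2 fold change 4.61 ± 0.30 (SE), adjusted p = 3.37e-07). Spry2, a feedback inhibitor of receptor tyrosine kinases, fell, with 64.8, 65.9, 68.8 and 53 CPM at E11.5 and 12.4, 8.38, 1.59 and 10.9 CPM at E13.5 (log2 fold change -2.92 ± 0.50 (SE), adjusted p = 0.000546). The receptor gene Fgfr1 fell from 117 to 49.5 CPM (log2 fold change -1.24, adjusted p = 0.00409), and the 5 lower calls became 2 without E11.5 Control 3 and 3 without E13.5 Control 1, 2 or 4.

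BMP signalling specifies PGCs and later supports the female fate. Of 15 genes of the pathway and its response tested, 4 rose and 6 fell, against 19.8% and 18.7% of all genes tested. All 6 that fell, Id1, Id2, Id3, Msx2, Gata2 and Smad6, had a large change, against 9.85% of all genes tested. The median was -0.999, and -0.385 with the span offset, where 4 rose and 4 fell. Id3, an inhibitor of bHLH factors and a direct BMP target, measured 259, 121, 123 and 164 CPM at E11.5 and 6.61, 10.3, 7.94 and 6.86 CPM at E13.5 (log2 fold change -4.38 ± 0.32 (SE), adjusted p = 8.55e-07), and -2.47 with the span offset (adjusted p = 0.000345). Msx2, a homeobox target of BMP, measured 59, 63.9, 63 and 87.8 CPM at E11.5 and 1.63, 1.61, 0 and 0.857 CPM at E13.5 (log2 fold change -5.99 ± 0.65 (SE), adjusted p = 2.03e-05), and -5.13 with the span offset. The highest E13.5 library was far below the lowest E11.5 library for both. Those that rose were the ligand gene Bmp7 (log2 fold change 1.33 ± 0.25, adjusted p = 0.000988), the signal transducer gene Smad5 and 2 receptor genes. The receptor genes Bmpr1a and Bmpr2 rose with log2 fold changes of 1.46 ± 0.22 and 1.51 ± 0.30 and adjusted p of 0.00024 and 0.00173. In the E12.5 cells Id3 was still high, at 989 and 1043 CPM, and Msx2 stood at 22.8 and 81.2 CPM.

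No retinoic acid gene rose, and 3 of 10 tested fell, against 1 with the span offset. Among all genes tested 19.8% rose and 18.7% fell, and 1427 of 11893 fell with the offset. The 1 that fell with the offset was near that share. The counts of the list without the offset rested on single libraries. Without E11.5 Control 1, 2 or 4, 1 rose and 1 fell, and without E11.5 Control 3, 1 rose and 3 fell. Without E13.5 Control 3, 2 rose and 5 fell of 13 tested. Crabp1, the retinoic acid-binding protein gene, went from 32.6, 29.5, 17 and 33.2 CPM to 4.48, 1.13, 15.3 and 1.29 CPM (log2 fold change -2.33 ± 0.74 (SE), adjusted p = 0.0237). Its call was lost with the span offset (adjusted p = 0.265) and without any 1 of E11.5 Control 1, 2 or 4 or E13.5 Control 1 or 4 (adjusted p 0.0534 to 0.0591).

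Genes of early PGCs and of pluripotency fell more often than they rose. Of 36 tested, 14 fell, 8 of them by a large change, and 5 rose, with a median of -0.449. The shares over all genes tested were 18.7%, 9.85% and 19.8%. With the span offset the direction of the list was no longer uneven, with 7 falling, 7 rising and a median of 0.145. Alpl, the alkaline phosphatase long used to stain PGCs, measured 297, 340.1, 399.8 and 277 CPM at E11.5 and 34.1, 40.2, 23.9 and 18.6 CPM at E13.5 (log2 fold change -3.48 ± 0.27 (SE), adjusted p = 1.16e-06). Tfap2c, which encodes a transcription factor of PGC specification, measured 173, 161, 202 and 156 CPM at E11.5 and 23.1, 15, 12.1 and 21.6 CPM at E13.5 (log2 fold change -3.27 ± 0.26 (SE), adjusted p = 1.74e-06). Both fell by more than 8-fold without overlap, and fell with the span offset too (-3.76 and -2.75). Dnd1 measured 43.7, 104, 55.1 and 70.03 CPM at E11.5 and 6.1, 13.6, 7.33 and 13.3 CPM at E13.5 (log2 fold change -2.76 ± 0.40 (SE), adjusted p = 0.000165), with -1.22 under the span offset (adjusted p = 0.0247). Ifitm1, which encodes an interferon-induced membrane protein of PGCs, fell from 342, 493, 425 and 405 CPM to 64.2, 75.4, 60.9 and 42.2 CPM (log2 fold change -2.77 ± 0.22 (SE), adjusted p = 1.37e-06), and its neighbour Ifitm3 from 369, 501, 606 and 449.6 CPM to 146, 128, 79.9 and 60.9 CPM (log2 fold change -2.21 ± 0.27 (SE), adjusted p = 5.45e-05). These are short genes, and with the span offset Ifitm1 kept a fall (-1.16, adjusted p = 0.00612) while Ifitm3 did not pass (-0.17, adjusted p = 0.667).

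The core pluripotency genes behaved unequally. Nanog measured 136, 165, 247 and 206 CPM at E11.5 and 61.1, 62.7, 63.8 and 59.4 CPM at E13.5 (log2 fold change -1.61 ± 0.22 (SE), adjusted p = 0.000103), and did not pass with the span offset (-0.70, adjusted p = 0.068). Sox2 measured 92.9, 123, 157 and 98.2 CPM at E11.5 and 41.1, 35, 51.7 and 27.2 CPM at E13.5 (log2 fold change -1.60 ± 0.27 (SE), adjusted p = 0.000527), and with the span offset its log2 fold change was 0.05 (adjusted p = 0.925). Pou5f1, whose promoter drives the sorted reporter, measured 83.9, 65.2, 46.8 and 83.2 CPM at E11.5 and 64.6, 46.1, 42 and 49.7 CPM at E13.5 with overlap (log2 fold change -0.46 ± 0.27 (SE), adjusted p = 0.198). Dppa3, also called Stella, is the most abundant of these genes and rose from 849, 897, 803 and 996 CPM to 1626, 1693, 1434 and 1740 CPM (log2 fold change 0.87 ± 0.14 (SE), adjusted p = 0.000412). Kit, the receptor for the survival signal from the gonad, measured 403, 358, 395 and 424 CPM at E11.5 and 664, 437, 422 and 371 CPM at E13.5 with overlap (log2 fold change 0.26 ± 0.19 (SE), adjusted p = 0.303).

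In the E12.5 cells Alpl stood at 310.4 and 276 CPM, close to the bulk E11.5 level, and Tfap2c at 248 and 86.9 CPM. Each reached 10 CPM in nearly all kept cells, 13 of 13 and 21 of 22 cells for Alpl and 13 of 13 and 20 of 22 cells for Tfap2c. Nanog was lower there than in bulk E11.5, at 65.9 and 34.6 CPM.

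**Figure D4:**
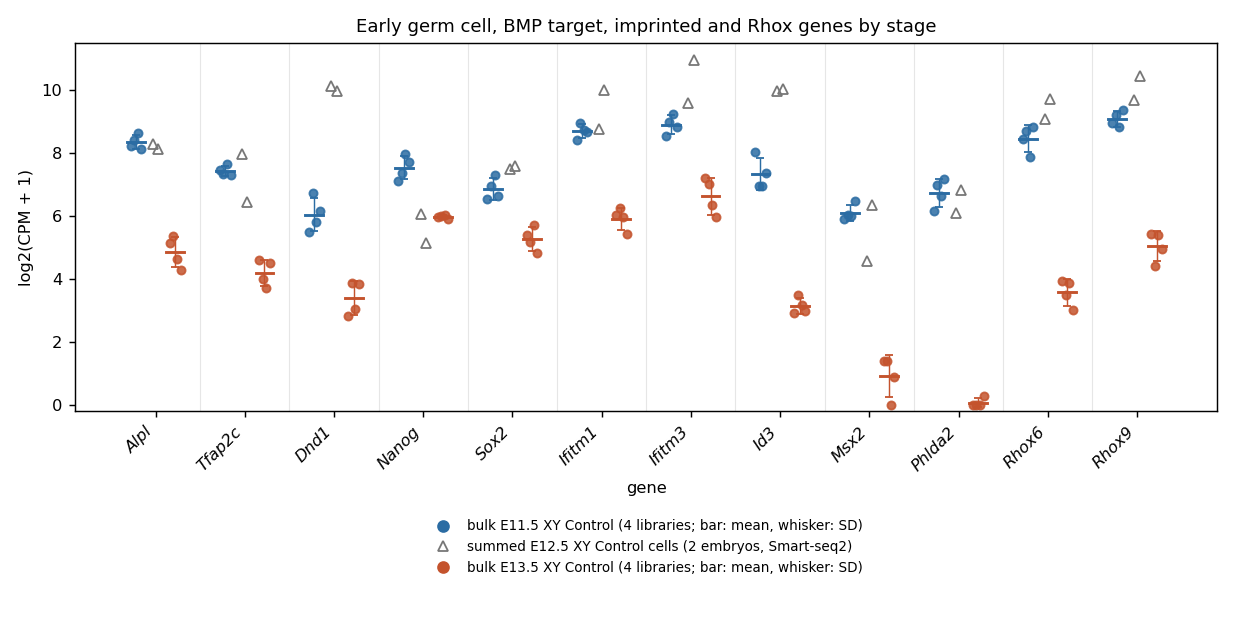
For 12 genes of early germ cells and signalling (x axis), the level is given as log2(CPM + 1) on the y axis, with the 4 E11.5 libraries in blue, the 4 E13.5 libraries in red (mean and SD) and sums of E12.5 cells of 2 embryos as grey triangles. All red points lie below all blue ones at each gene, while Id3, Dnd1, Sox2, Ifitm3, Rhox6 and Rhox9 are higher in the cells of both E12.5 embryos than in any bulk library; with the span offset Nanog and Ifitm3 did not pass the test and Sox2 turned to 0.05.

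Genes of migration and adhesion fell more often than they rose, 7 against 2 of 23 tested, and 6 against 1 with the span offset. Over all genes tested the shares were 18.7% lower and 19.8% higher. The 2 that rose became 1 without E11.5 Control 2, 3 or 4 or E13.5 Control 4. Cxcr4, the chemokine receptor that guides migrating PGCs, fell from 27.2, 46.7, 47.9 and 40.1 CPM to 8.34, 8.22, 7.08 and 13.9 CPM (log2 fold change -2.12 ± 0.38 (SE), adjusted p = 0.000873), but not with the span offset (adjusted p = 0.0768). Cd9, a tetraspanin gene, fell from 15.3, 12.6, 6.9 and 25.2 CPM to 1.93, 3.14, 0.855 and 1.29 CPM (log2 fold change -3.03 ± 0.68 (SE), adjusted p = 0.00334). Cdh1, which encodes E-cadherin, rose from 79.3, 93, 83.4 and 137 CPM to 292, 329.9, 244 and 188 CPM (log2 fold change 1.43 ± 0.24 (SE), adjusted p = 0.000467).

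Markers of division did not fall together at E13.5. Of 42 proliferation genes tested, 11 rose and 15 fell, against 19.8% and 18.7% of all genes tested. The median was -0.0535, and 0.187 with the span offset, where 12 rose and 5 fell. Mki67, the gene of the Ki-67 antigen, rose from 1281, 1059, 1309 and 1234 CPM to 2966, 2543, 5695 and 4234 CPM (log2 fold change 1.66 ± 0.23 (SE), adjusted p = 0.000115). Top2a, which encodes topoisomerase II of dividing cells, rose from 1107, 960, 1244 and 1283 CPM to 2645, 2667, 3900 and 2563 CPM (log2 fold change 1.36 ± 0.17 (SE), adjusted p = 7.31e-05), with Control 3 the highest of each. Ccnd3, a D-type cyclin gene, fell from 89.2, 138, 95.3 and 91.7 CPM to 18.6, 16.8, 3.91 and 5.36 CPM (log2 fold change -3.19 ± 0.47 (SE), adjusted p = 0.000193), and its partner kinase gene Cdk4 from 278, 286, 394 and 348 CPM to 78.9, 89.9, 78.3 and 72.6 CPM (log2 fold change -2.03 ± 0.19 (SE), adjusted p = 5.37e-06). Rrm2, a ribonucleotide reductase subunit gene, fell from 295 to 106 CPM (log2 fold change -1.47), but did not pass with the span offset (adjusted p = 0.133). Ccnd1 overlapped (log2 fold change 0.92 ± 0.60 (SE), adjusted p = 0.243).

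Among 6 cell cycle inhibitors tested, 2 rose and 1 fell, against 19.8% and 18.7% of all genes tested. With the span offset 3 rose and none fell. Rb1, the retinoblastoma gene, measured 52.4, 60.4, 81.9 and 43.8 CPM at E11.5 and 154, 185, 194 and 152 CPM at E13.5 (log2 fold change 1.52 ± 0.23 (SE), adjusted p = 0.000238). Its relative Rbl2 rose from 2.32, 4.68, 4.12 and 1.89 CPM to 13.53, 13, 99.2 and 23.4 CPM (log2 fold change 3.52 ± 0.71 (SE), adjusted p = 0.00177), with Control 3 more than 4-fold above the other E13.5 libraries. Cdkn1a, which encodes p21, fell from 53.1, 66.6, 45.2 and 68.2 CPM to 30.2, 24, 27 and 31.9 CPM (log2 fold change -1.04 ± 0.27 (SE), adjusted p = 0.00899), but not with the span offset (adjusted p = 0.464). Cdkn1b, which encodes p27, averaged 6.93 and 4.35 CPM (log2 fold change -0.68 ± 0.64 (SE), adjusted p = 0.434; 0.44 with the span offset), and Cdkn2a did not pass the filter.

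Called genes of the p53 pathway more often rose than fell. Of 26 p53 and apoptosis genes tested, 9 rose and 3 fell, with or without the span offset. Without the offset the shares over all genes tested were 19.8% and 18.7%. The median of the list was -0.0438, near that of all genes tested (-0.054). With the offset these medians were 0.603 and 0.145. Pmaip1, also called Noxa, measured 1.78, 1.32, 0.406 and 1.32 CPM at E11.5 and 18.1, 31.6, 32.9 and 30.6 CPM at E13.5 (log2 fold change 4.55 ± 0.58 (SE), adjusted p = 6.51e-05). Ccng1, a p53-induced cyclin gene, measured 28.1, 39, 40.9 and 44.4 CPM at E11.5 and 203, 168, 208 and 218 CPM at E13.5 (log2 fold change 2.39 ± 0.21 (SE), adjusted p = 4.36e-06). Aen, an apoptotic nuclease gene, rose from 6.32, 12.51, 4.75 and 8.93 CPM to 48.2, 50.8, 43.4 and 72.4 CPM, and Mdm2, the ligase that degrades p53, from 165, 161, 163 and 186 CPM to 498, 386, 661 and 473 CPM (log2 fold changes 2.72 ± 0.39 and 1.58 ± 0.19, adjusted p 0.000163 and 3.84e-05). Bax, the pro-apoptotic effector, moved the other way, from 83.9, 91.8, 58.4 and 108 CPM to 12.8, 8.3, 7.94 and 11.4 CPM (log2 fold change -3.08 ± 0.32 (SE), adjusted p = 1.3e-05). None of these 5 genes overlapped between the stages. The lower count of 3 was 1 without E11.5 Control 3 and 5 without E13.5 Control 3.

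Chromatin regulators moved in both directions. Of 24 Polycomb genes tested, 8 rose and 4 fell (7 and 3 with the span offset), and the 4 became 1 without E11.5 Control 4 or without E13.5 Control 4 and 2 without E11.5 Control 1. Bmi1, a subunit of Polycomb repressive complex 1, had the only large rise, with 4.45, 13.1, 9.28 and 9.81 CPM at E11.5 and 113, 135, 195 and 97.7 CPM at E13.5 (log2 fold change 3.88 ± 0.36 (SE), adjusted p = 6.28e-06). Phf19, an accessory factor of Polycomb repressive complex 2, fell from 109.7, 106, 97.6 and 134 CPM to 26.6, 34.2, 18.2 and 20.6 CPM (log2 fold change -2.16 ± 0.27 (SE), adjusted p = 5.57e-05). The Polycomb counts stand against 19.8% higher and 18.7% lower over all genes tested. Of 16 DNA methylation genes tested, 4 rose and 4 fell, near those shares. Tet1, which encodes the main oxidase of methylated cytosine in these cells, rose from 1065, 894, 1294 and 1058 CPM to 2590, 2686, 5316 and 3624 CPM (log2 fold change 1.72 ± 0.23 (SE), adjusted p = 8.64e-05). The maintenance methyltransferase gene Dnmt1 rose from 492, 439, 418 and 644 CPM to 962, 1101, 1184 and 1193 CPM (log2 fold change 1.16 ± 0.17 (SE), adjusted p = 0.000215), and its partner Uhrf1 from 20.9, 20.9, 21.2 and 9.81 CPM to 78.6, 77.8, 34 and 54.4 CPM (log2 fold change 1.75 ± 0.37 (SE), adjusted p = 0.00239). The 4 that fell became 1 with the span offset and 2 without E11.5 Control 1, 2 or 4 or E13.5 Control 1. In a list of 18 tested enzymes and readers, mostly of H3K9 methylation but with H3K27 demethylase genes as well, 6 rose and none fell (4 and none with the span offset). The 6 include Kdm6a, an H3K27 demethylase gene (log2 fold change 0.98 ± 0.20), which did not pass with the span offset (adjusted p = 0.0763).

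Of 44 imprinted genes tested, 9 rose and 13 fell, 11 of the 13 by a large change. With the span offset 8 rose and 10 fell. Over all genes tested 19.8% rose, 18.7% fell and 9.85% fell by a large change, and 19.4% rose with the span offset. The imprinted genes that rose were thus near the share over all genes tested, with or without the offset. Without E11.5 Control 1 the lower count was 8, and without E11.5 Control 3 the higher count was 5. Phlda2, a maternally expressed growth regulator, measured 69.7, 126, 97.4 and 143 CPM at E11.5 and had 1 count in all at E13.5, in Control 4, a ratio of 3870 with an exact 95% interval of 694 to 153000 for counting error only (adjusted p = 1.71e-07). Peg10, a paternally expressed gene, fell from 158, 110, 190 and 64.2 CPM to 3.66, 5.24, 1.59 and 19.3 CPM (log2 fold change -4.20 ± 0.65 (SE), adjusted p = 0.000271). H19, a maternally expressed noncoding RNA, fell from 252, 139.9, 240.1 and 135 CPM to 18.4, 28.9, 49.6 and 33.9 CPM (log2 fold change -2.56 ± 0.33 (SE), adjusted p = 7.15e-05), but not with the span offset (adjusted p = 0.138). In the E12.5 cells Phlda2 was still present, at 67.8 and 113 CPM.

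Some genes of the X-linked Rhox homeobox cluster fell by a large change. Of 14 Rhox genes tested (15 others in the tables were too low) none rose and 6 fell, all by a large change, and the summed level of the cluster went from 831 to 1230 CPM down to 45 to 97.9 CPM, most of it Rhox6 and Rhox9 at E11.5. With the span offset 4 fell, all by a large change, and 1 rose. Among all genes tested 18.7% fell and 9.85% fell by a large change. With the offset 1427 of 11893 fell, and 5.78% fell by a large change. Rhox6 measured 346, 412, 232 and 447 CPM at E11.5 and 14.2, 10.2, 13.8 and 7.07 CPM at E13.5 (log2 fold change -4.97 ± 0.30 (SE), adjusted p = 2.08e-07), and Rhox9 measured 496, 587, 447 and 659 CPM at E11.5 and 42.3, 20.4, 40.7 and 29.8 CPM at E13.5 (log2 fold change -4.04 ± 0.26 (SE), adjusted p = 2.58e-07). Both kept their fall with the span offset (-3.44 and -2.45), and both were still high in E12.5 cells, at 539.7 and 845 CPM and 822 and 1394 CPM. Members of the cluster are close copies of each other, so the count of any 1 copy is uncertain.

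Genes of energy metabolism fell more often than they rose. Of 37 oxidative phosphorylation genes tested, 24 fell, 15 by a large change, and 3 rose, with a median of -1.58. The shares over all genes tested were 18.7%, 9.85% and 19.8%. With the span offset 19 fell and 5 rose, with a median of -0.881. Cox4i1, of cytochrome c oxidase, fell from 789.7, 694, 647 and 645 CPM to 40.8, 27.2, 38 and 16.7 CPM (log2 fold change -4.49 ± 0.27 (SE), adjusted p = 2.08e-07). Atp5e, of the ATP synthase, fell from 488, 514, 299.5 and 427 CPM to 21.2, 10.1, 10.3 and 11.8 CPM (log2 fold change -5.01 ± 0.31 (SE), adjusted p = 2.08e-07). Both kept a large fall with the span offset (-3.46 and -3.62). Of 24 glycolysis genes tested, 12 fell and 4 rose (10 and 4 with the span offset). Slc2a3, the glucose transporter GLUT3, measured 323, 340.1, 540.1 and 338 CPM at E11.5 and 20.6, 28.7, 31.8 and 23.8 CPM at E13.5 (log2 fold change -3.88 ± 0.24 (SE), adjusted p = 2.1e-07). Ldha, lactate dehydrogenase A, fell from 97.1, 76, 99.2 and 102 CPM to 8.65, 8.95, 1.1 and 10.7 CPM (log2 fold change -3.67 ± 0.51 (SE), adjusted p = 0.000136). Both fell with the span offset too (-4.23 and -3.24). Among the 4 that rose, Gapdh averaged 20.03 and 1152 CPM (log2 fold change 5.85 ± 0.34 (SE), adjusted p = 1.75e-07) and Pgam1, phosphoglycerate mutase, 28.5 and 372 CPM (log2 fold change 3.70 ± 0.23 (SE), adjusted p = 2.08e-07); both have processed pseudogenes, and their counts are uncertain. The summed level of the glycolysis genes overlapped, at 2630 to 3380 CPM at E11.5 and 1980 to 3470 CPM at E13.5.

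Ribosomal protein genes and replication histones, which are short, changed their counts strongly with the offset. Of 74 ribosomal protein genes tested, 47 fell and 11 rose, with a median of -1.09, whereas with the span offset 19 fell and 29 rose, with a median of 0.134. Of 38 replication histone genes tested, 27 fell and none rose, and with the span offset 7 fell and none rose. Their medians were -2.9 and -0.699. Without the offset 18.7% of all genes tested fell and 19.8% rose, and with it 1427 of 11893 fell and 19.4% rose. The histone genes that fell were thus closer to the share over all genes tested with the offset than without it.

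**Figure D5:**
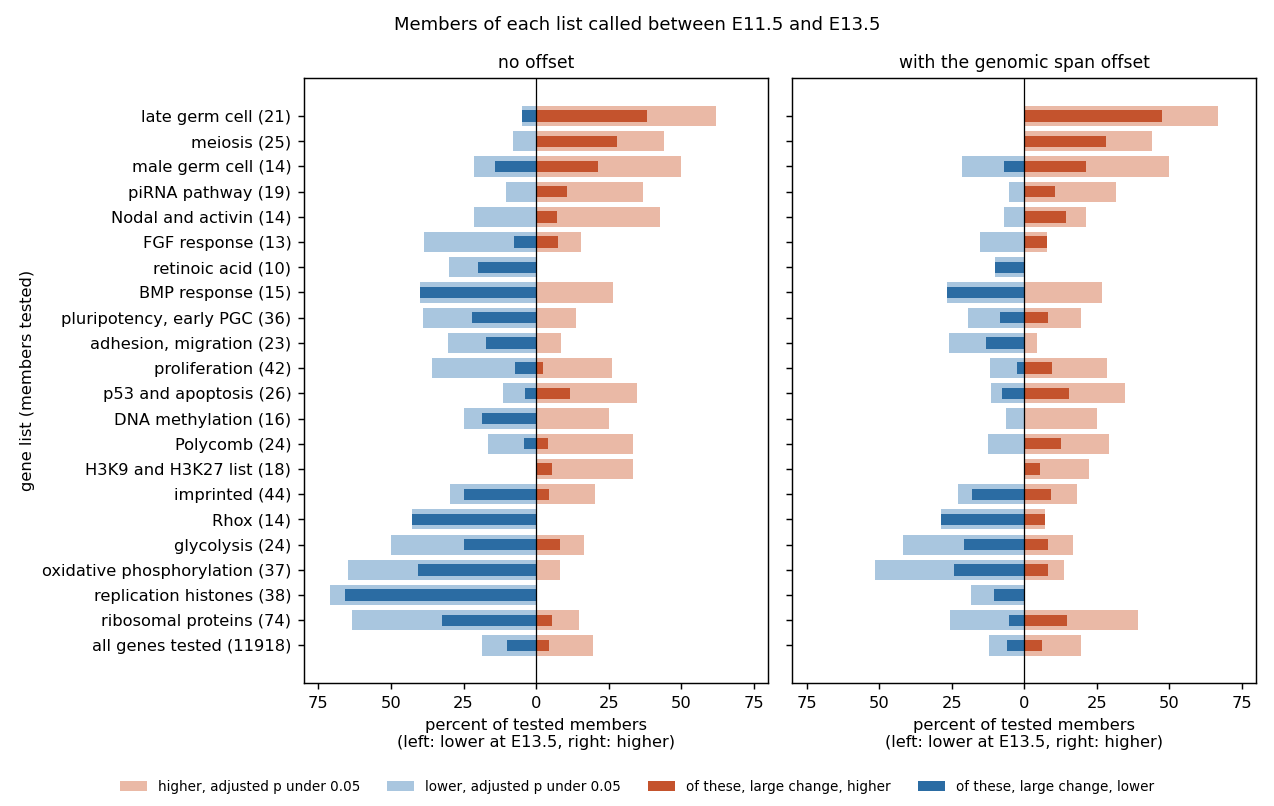
Each bar gives the percent of tested members of a gene list that were called higher (to the right, red) or lower (to the left, blue) at E13.5, with the large changes as the darker inner bars; the left panel has no offset and the right panel the span offset. In both panels the late germ cell list lies almost wholly to the right, while the ribosomal protein list moves from left to right and the histone list shrinks from 27 to 7 lower calls.

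Genes listed as markers of other gonadal cells were mostly low. Exceptions lay in single libraries and, for Aard, Clu and Pecam1, in all libraries of at least 1 stage. Their levels are CPM by total counts, whereas the levels of single genes above also carry the TMM library scaling. Of 20 supporting cell markers 4 were tested, of which 1 rose and 2, Aard and Clu, fell by a large change. Aard measured 59, 69.7, 70.3 and 59 CPM at E11.5 and 2.33, 1.37, 0.0945 and 10.6 CPM at E13.5. Clu measured 34.2, 13.6, 26.4 and 17.1 CPM at E11.5 and 0.608, 1.21, 0 and 3.87 CPM at E13.5. In the singly sorted E12.5 cells Aard stood at 22.7 and 27.8 CPM and reached 10 CPM in 8 of 13 and 14 of 22 cells. Clu stood there at 1.91 and 10.2 CPM and reached 10 CPM in 1 of 13 and 5 of 22 cells. Aard was thus not limited to other gonadal cells in these data. The 20 markers summed to 92.1 to 110 CPM at E11.5, most of it Aard and Clu, and 20.4 to 176 CPM at E13.5. The sum of 176 CPM belonged to E13.5 Control 3 and was mostly Wt1, at 171 CPM there and 2.23, 0.724 and 21.4 CPM in the others. Wt1 was the marker that rose, and it did not pass without E13.5 Control 3 (adjusted p = 0.198), while Amh stayed at or below 0.204 CPM and Sry at or below 0.334 CPM in all 8. Interstitial markers summed to 14.8 to 92.6 CPM at E11.5 and 8.92 to 45.9 CPM at E13.5, with 0 of 6 tested called, 1 higher with the span offset, and Cyp11a1 at 0 in all libraries. Endothelial markers summed to 232 to 382 CPM and 150 to 221 CPM, most of it Pecam1, with 3 of 5 tested falling and 1 of 5 without E13.5 Control 1 or 2. Blood markers summed to 18.1 to 339 CPM at E11.5, the highest being E11.5 Control 1 with 180 CPM of embryonic globin Hbb-y, and to 11.4 CPM or less at E13.5, with 2 of 4 tested falling (1 without E11.5 Control 1 or 3 or E13.5 Control 3) and 10 of 17 at 0 throughout E13.5. Of 15 dissociation stress genes tested, 8 fell, all by a large change, among them Egr1 (log2 fold change -3.04 ± 0.62 (SE), adjusted p = 0.00194). The span offset left 5 that fell, 3 of them by a large change, and 3 that rose. Without the offset 1 rose, Hsp90aa1, from 1532 ± 80.5 to 7998 ± 837 CPM (SD, n = 4). Ribosomal RNA precursor (Rn45s) took 10.1% to 22.5% of counts at E11.5 and 1.66% to 2.73% at E13.5. The span offset left the counts of supporting, endothelial and blood markers as they were. Without the offset, 19.8% of all genes tested rose, 18.7% fell and 9.85% fell by a large change. The part of these markers, of stress genes and of Rn45s in the changes above was not tested.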

How the data were processed

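Gene counts of 8 bulk RNA-seq libraries (Control XY, 4 at E11.5 and 4 at E13.5) were used as deposited. Per the labels and the values, the deposited tables hold raw counts for 24391 gene symbols, 1 table for each stage and sex. The submitters' processing notes name HISAT2, edgeR and mm9, with no version. The annotation, the strand setting and the treatment of multiply mapped reads are not known from the labels.

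The E11.5 and E13.5 XY tables were joined on gene symbol. Genes were kept by filterByExpr, libraries were scaled by TMM, and stages were compared with edgeR's quasi-likelihood test (edgeR 4.0.16, limma 3.58.1, R 4.3.3) with robust dispersion and Benjamini-Hochberg adjustment over 11918 genes. Levels of single genes are CPM on TMM-scaled library sizes. The range of 4903492 to 14974853 counts per library sets the counting precision. On simulated counts for these 11918 genes, changes were put only into genes averaging at least 5 CPM, 67 at 2-fold, 67 at 4-fold and 66 at 8-fold. The test recovered 17.9%, 73.1% and 84.8% of them. The simulation held far fewer changed genes than were called in the data (4581) and no trend with span. Its rates therefore do not measure the power of the test on the data, and less so for genes of low count.

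The E12.5 cells came from 2 embryos (24 cells each, of which 13 and 22 had at least 50000 counts and 1500 genes) and were summed per embryo, with a gene called present in a cell at 10 CPM. The embryos are told apart by column names only. No doublet caller was run on these singly sorted cells. Another 48 columns of per-sample values, the E12.5 XY knockout cells, were not used. Intervals and floors cover counting error only.

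The alternatives were DESeq2 1.42.0 with its size factors, scaling by total counts, other filters, all 22 bulk libraries, a replicate block, glmTreat, each library left out, and an offset on genomic span (RefSeq, GRCm38.p6, all but 120 of 24391 symbols matched) added after seeing the data. Named genes are the 15 higher and 15 lower of largest change among called genes without overlap and with at least 5 CPM in the higher group, up to 5 called members of smallest adjusted p in each list, and genes always named, such as Nanos2, Nodal and Eed. The 6 BMP targets that fell were named in full after their values were seen. The gene groups and lists were chosen with earlier results of these data known.

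Results for some genes are not reported here.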

Additional observations from a re-analysis of the deposited data

Results flagged for a closer look

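In 23 of 182 groups of 4 libraries, among genes whose values are given above, 1 library lay far from the other 3. For values that follow a normal curve, the rule flags about 1 in 20 such groups. CPM values can be skewed, and a lone value above 0, as at Phlda2 and Stra8 at E13.5, is always flagged. The count of 23 therefore cannot be read against that rate.

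E13.5 Control 3 was the high library at Dazl (1089 CPM against 566 to 638 CPM in the others), Smc1b (1237 against 522 to 576), Top2a (3900 against 2563 to 2667), Rbl2 (99.2 against 12.98 to 23.4) and Wt1 (221 against 0.725 to 22.5). E13.5 Control 1 was high at Atp5e (21.2 against 10.1 to 11.8 CPM) and Rrm2 (142 against 90.9 to 99.2) and low at Pmaip1 (18.1 against 30.6 to 32.9). E13.5 Control 2 was high at Tex19.1 (170 against 122 to 128 CPM), and it alone held counts of Stra8 (0.403 CPM), while E13.5 Control 4 alone held a count of Phlda2 (0.214 CPM).

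Among the E11.5 libraries, Control 1 was high at Hbb-y, an embryonic globin gene (178 against 0.881 to 1.57 CPM). Control 2 was high at Acvr2a (24.5 against 11.8 to 12.99 CPM) and Ccnd3 (138 against 89.2 to 95.3). Control 3 was high at Slc2a3 (540 against 323 to 340 CPM), Psmc3ip (87.5 against 71.9 to 72.9) and Cd2 (11.54 against 9.76 to 10.1). Control 4 was high at Tdgf1 (34.7 against 19.06 to 20.5 CPM), Msx2 (87.8 against 59.0 to 63.9), Mdm2 (186 against 161 to 165) and Tex19.1 (257 against 204 to 212), and low at Uhrf1 (9.81 against 20.9 to 21.2) and Cdkn1b (3.96 against 7.63 to 8.12). None of these groups was used to choose a library to leave out.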

How the results depend on the processing

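Stage and table cannot be told apart, and the counts of genes depend on the threshold and on the span offset. Tested against a log2 fold change of 1 with glmTreat, 1793 genes differed, 786 higher and 1007 lower. A threshold of 1 in place of 2 gave 3528 large changes, 1613 higher and 1915 lower. With the span offset 1427 genes were lower and 688 had a large change downwards. Scaling by total counts moved the median log2 fold change from -0.054 to -0.267, with 1830 genes higher and 2532 lower. Leaving out each library in turn gave 3731 to 5683 genes that differed, 1974 to 2721 higher and 1757 to 2962 lower, and 1571 to 1895 large changes, 534 to 618 higher and 1023 to 1277 lower. The highest of each of these ranges came without E13.5 Control 3. DESeq2 gave 2612 genes higher and 2646 lower.

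Over the named genes, no call or direction changed with DESeq2 (160 genes) or its size factors (163), and 22 calls were lost and 6 directions turned with the span offset. The turned log2 fold changes were 0.44 for Cdkn1b, -0.12 for Kit, 0.76 for Nodal, 0.65 for Pou5f1, 0.053 for Sox2 and 0.99 for Tex19.1. Leaving out 1 library gave Eed -0.32 to 0.045 (above 0 without E11.5 or E13.5 Control 3), Lefty1 -0.053 to 0.85 (below 0 without E13.5 Control 2) and Nodal -0.36 to 0.17 (above 0 without E11.5 or E13.5 Control 4), none of which passed the test with all libraries. Deviations of same-numbered libraries of the stages had correlations of -0.0352 to 0.0721, and those of the other pairs -0.0499 to 0.0721. This gave no sign of pairing by replicate number, but such a check cannot exclude a shared origin or batch. A replicate block gave 2117 genes higher and 2086 lower, turned Lefty1 to -0.032 and lost Cdh5, Rxrb, Sycp3 (adjusted p = 0.0549) and Wt1. Counting a cell as positive at any count in place of 10 CPM moved 56 of 334 shares of E12.5 cells upwards. Genes with few counts, such as Nanos2, are limited by depth.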

Other observations

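A group of 17 genes had no count in any of the 4 E11.5 libraries and at least 5 CPM in each of the 4 E13.5 libraries. Of these, 16 also had no count in the 3 XX Control libraries of E11.5, and 15 had none in the kept E12.5 XY cells. Besides Ctcfl they included Zfp488, a zinc finger gene of oligodendrocytes, at 53.9, 58.3, 84.3 and 98.8 CPM (at least 1238-fold higher), Nlrp1a, an inflammasome sensor gene, at 37.7, 32.4, 55 and 61.5 CPM (at least 777-fold), and Tyr, the tyrosinase gene of pigment cells, at 11.3, 14, 17.3 and 34.9 CPM (at least 304-fold). The strand setting of the counts is not known, and without strand, reads from such a gene and from an overlapping or antisense transcript cannot be told apart. The 17 also held Mrgpra6 (443, 439, 928 and 1121 CPM at E13.5), Olfr613, Vmn1r58 and several symbols of the Gm and Rik kind. Stage and table cannot be told apart for this all-or-none pattern either. The same pattern with a few counts at E11.5 was seen at Adarb2, an RNA-editing paralogue expressed in brain, at 0, 0.203, 0 and 0.252 CPM and 162, 148, 171 and 242 CPM (log2 fold change 10.53 ± 0.56 (SE), adjusted p = 8.99e-08). In the other direction the only gene at 0 in all E13.5 libraries and at 5 CPM or more in all E11.5 libraries was Cd2, a lymphocyte adhesion gene, at 10.1, 9.76, 11.54 and 9.81 CPM at E11.5 (at least 122-fold lower).

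Gapdh, the glycolytic enzyme often used as a reference gene, measured 21.6, 20.3, 26.4 and 11.8 CPM at E11.5 and 1562, 1441, 781 and 823 CPM at E13.5 (log2 fold change 5.85 ± 0.34 (SE), adjusted p = 1.75e-07), and 4932 and 4670 CPM in the E12.5 cells. Rpl21, a ribosomal protein gene, measured 32, 43.8, 35.7 and 31 CPM at E11.5 and 591, 580.2, 489 and 723 CPM at E13.5, and 397, 322 and 310 CPM in the 3 XX Control libraries of E11.5, which come from another table; this difference was not tested. Both genes have many processed pseudogenes, and their counts are uncertain in any table.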
